A study of Mus musculus with 13 samples.

Results

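The 4 arrays of MYCN-driven tumours in a series on murine neuroblastoma are compared here with its 3 arrays of normal adrenal gland, which is 7 of 13 arrays in all. The members were chosen by the genotype label, and the comparison covers all 18194 genes that could be represented by a probe set carrying exactly 1 gene symbol, each by the probe set that was brightest on average over all 13 arrays. All animals were C57BL/6 mice. The MYCN mice carried a transgene that expresses MYCN, a transcription factor, in the neural crest, and were followed until a tumour could be felt. The adrenal arrays hold tissue labelled as normal adrenal of genotype normal. The remaining groups, used only for the spread and for a closing comparison, are tumours driven by mutated ALK (mutALK, 3 arrays) and by both transgenes (double transgenic, 3 arrays). RNA was hybridised to Affymetrix mouse arrays, and no treatment is named. The construct's promoter, the age of the animals and whether each array holds another animal are not given in the sources used here, so the p-values measure only the spread between these samples.

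Neuroblastoma is a childhood cancer of the sympathoadrenal lineage, the neural crest cells that form the sympathetic ganglia and the chromaffin cells of the adrenal medulla. The adrenal gland used as the control is mainly cortex, a mesodermal tissue that makes steroid hormones from cholesterol and surrounds the medulla. MYCN belongs to the MYC family, whose proteins pair with MAX, bind the E-box letters CACGTG, and are known for raising genes of ribosome production and cell division. A difference between tumour and gland therefore mixes tissue of origin, cell composition and tumour state, and in bulk samples fewer cells of a type and less RNA per cell cannot be told apart.

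These promoters were picked from lists of mitotic, oncofetal and cholesterol synthesis genes because they hold the letters shown. Among such holders the choice went by direction and size of the difference. That they hold those letters is therefore not a result. The 250 bases before the start of each gene were taken from RefSeq (GRCm38.p6), which matched 14453 of the 18194 genes, and every sequence runs 5′ to 3′ on the strand of its gene. Ube2c, which feeds mitotic regulators to degradation (chr2:164769679-164769928, + strand), and Kif11, a spindle kinesin (chr19:37376132-37376381, + strand), rose and are shown with CCAAT (the letters bound by NF-Y) and TTTGAA (the core of the cell cycle homology region) in capitals on either strand. Rec114 (chr9:58741560-58741809, - strand), Stag3 (chr5:138280259-138280508, + strand) and Sycp3 (chr10:88459337-88459586, + strand) act in meiotic chromosomes and are shown with CACGTG in capitals. Rec114 and Stag3 rose and Sycp3 fell. Msmo1, a cholesterol synthesis enzyme that fell (chr8:64733579-64733828, - strand), is shown with CCAAT in capitals.
Ube2c: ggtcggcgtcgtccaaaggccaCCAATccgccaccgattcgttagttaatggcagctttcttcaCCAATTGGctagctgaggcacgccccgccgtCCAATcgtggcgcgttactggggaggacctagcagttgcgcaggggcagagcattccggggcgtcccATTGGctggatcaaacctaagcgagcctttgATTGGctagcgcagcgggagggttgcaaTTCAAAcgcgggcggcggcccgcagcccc
Kif11: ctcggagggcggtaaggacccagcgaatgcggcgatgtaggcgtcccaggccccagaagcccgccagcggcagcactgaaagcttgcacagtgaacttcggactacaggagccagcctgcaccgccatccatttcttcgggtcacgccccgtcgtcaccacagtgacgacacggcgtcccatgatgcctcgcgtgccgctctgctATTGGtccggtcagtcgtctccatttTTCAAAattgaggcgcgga
Rec114: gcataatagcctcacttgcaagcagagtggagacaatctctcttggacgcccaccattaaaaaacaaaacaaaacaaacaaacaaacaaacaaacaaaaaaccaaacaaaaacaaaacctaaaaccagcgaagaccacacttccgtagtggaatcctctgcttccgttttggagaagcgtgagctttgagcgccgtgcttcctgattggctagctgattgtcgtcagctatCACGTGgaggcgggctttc
Stag3: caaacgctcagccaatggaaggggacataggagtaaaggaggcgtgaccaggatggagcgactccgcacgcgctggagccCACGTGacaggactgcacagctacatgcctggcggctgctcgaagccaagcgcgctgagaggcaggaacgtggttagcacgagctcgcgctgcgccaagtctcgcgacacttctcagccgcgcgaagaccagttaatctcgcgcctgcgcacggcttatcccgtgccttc
Sycp3: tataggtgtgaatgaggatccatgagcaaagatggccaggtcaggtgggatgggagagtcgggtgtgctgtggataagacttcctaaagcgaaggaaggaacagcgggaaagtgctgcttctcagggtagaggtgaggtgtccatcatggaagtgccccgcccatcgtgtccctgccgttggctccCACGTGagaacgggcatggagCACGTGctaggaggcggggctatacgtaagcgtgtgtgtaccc
Msmo1: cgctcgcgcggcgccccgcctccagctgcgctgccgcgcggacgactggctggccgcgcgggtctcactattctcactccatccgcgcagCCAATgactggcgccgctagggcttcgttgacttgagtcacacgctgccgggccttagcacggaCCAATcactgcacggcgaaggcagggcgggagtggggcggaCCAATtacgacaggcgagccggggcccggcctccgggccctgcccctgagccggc

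The letters CACGTG stood in 7.56% of the promoters of all genes tested, in 9.04% of those of genes higher in MYCN tumours, in 8.19% of those lower and in 6.48% of those not called. In the list of genes for ribosome subunit assembly the share was 8.89% of 45 promoters. The share was 52.6% of 19 promoters in a list of oncofetal and meiotic genes, whose 10 holders went in different directions: Lin28b, Rec114 and Stag3 rose, Ddx4 and Sycp3 fell, and Igf2bp3, Mael, Hormad1, Mov10l1 and Tdrd1 were not called (Igf2bp3 was lower without MYCN 2, at -0.43, adjusted p = 0.0281). CCAAT stood in 35.7% of all promoters tested, in 64.7% of the 34 mitotic promoters, nearly all of genes that rose, and in 92.9% of the 14 cholesterol synthesis promoters, a list in which no gene rose. TTTGAA stood in 11.9% of all promoters tested and in 35.3% of the mitotic ones, and both stood together in 10 mitotic promoters (29.4%) and in 4.38% of all. The letters GGCGGGAA, an E2F site, stood in 4.4% of promoters of higher genes, 3.08% of lower genes and 1.82% of genes not called. The letters GGGCGG, a GC box that can overlap that site, stood in 59.7%, 58.7% and 40.2%. The letters CAAGGTCA, bound by the cortex regulator encoded by Nr5a1, stood in none of 9 steroid enzyme promoters and in 1.22% of all. With so few promoters and so rare a match, finding none says nothing about that list. A match is a string of letters on either strand, not a measured binding site.

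Values are log2 expression, written for MYCN 1 to 4 (the tumours) and adrenal 1 to 3 (the gland) in that order, and differences are MYCN minus adrenal ± SE. The SE takes its spread from all 13 arrays, so it does not measure the spread of the 7 printed values alone. A gene is called where limma's test, adjusted by Benjamini-Hochberg over all genes, gave a p under 0.05. Arrays of a group correlated at 0.98 to 0.989 across genes in the tumours and 0.938 to 0.991 in the gland, against 0.825 to 0.867 between them. Of all genes 50.2% (9128) were called, 4612 higher (25.3%) and 4516 lower (24.8%), and the median difference of all genes was -0.02. A difference of at least 2-fold was called for 5211 genes (28.6%), and the arrays did not overlap for 9720 genes (53.4%). Near-even totals covered unequal sizes: 98 genes differed by 5 or more on the log2 scale, 31 of them called higher and 66 called lower. Lists of genes are therefore read against 25.3% higher and 24.8% lower.

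Several arrays stood apart from their group in markers of other tissues, as the heat map of marker lists shows. Adrenal 2 had a mean of 10.68 over 21 liver genes, against 5.75 and 5.56 in the other adrenal arrays, and Alb, the serum albumin of hepatocytes, read 6.29, 13.31 and 5.87 in the gland. It was also the highest adrenal array for the fat cell list (12.08 against 10.41 and 10.18), the neurite list (10.23 against 7.43 and 6.98), the synapse list (9.24 against 7.62 and 7.07) and the pancreas list (6.25 against 5.35 and 5.47), and the lowest for steroid enzymes (10.36 against 11.04 and 11.21). Among the tumours, MYCN 2 was high for liver genes (8.61 against 4.67 to 5.44), MYCN 3 for skeletal muscle genes (7.58 against 4.93 to 5.02), MYCN 1 for lymphocyte genes (6.22 against 5 to 5.43) and MYCN 4 for fat cell genes (8.89 against 6.53 to 7.48). MYCN 2 and MYCN 3 share the leading number of their titles, whose meaning is not stated. All 3 adrenal arrays were female by Xist and Y-linked genes, against 1 female and 3 male tumours. The part of these arrays in the results was not tested beyond refitting without them and with sex as a covariate, and their values stand beside the results they move.

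**Figure D1:**
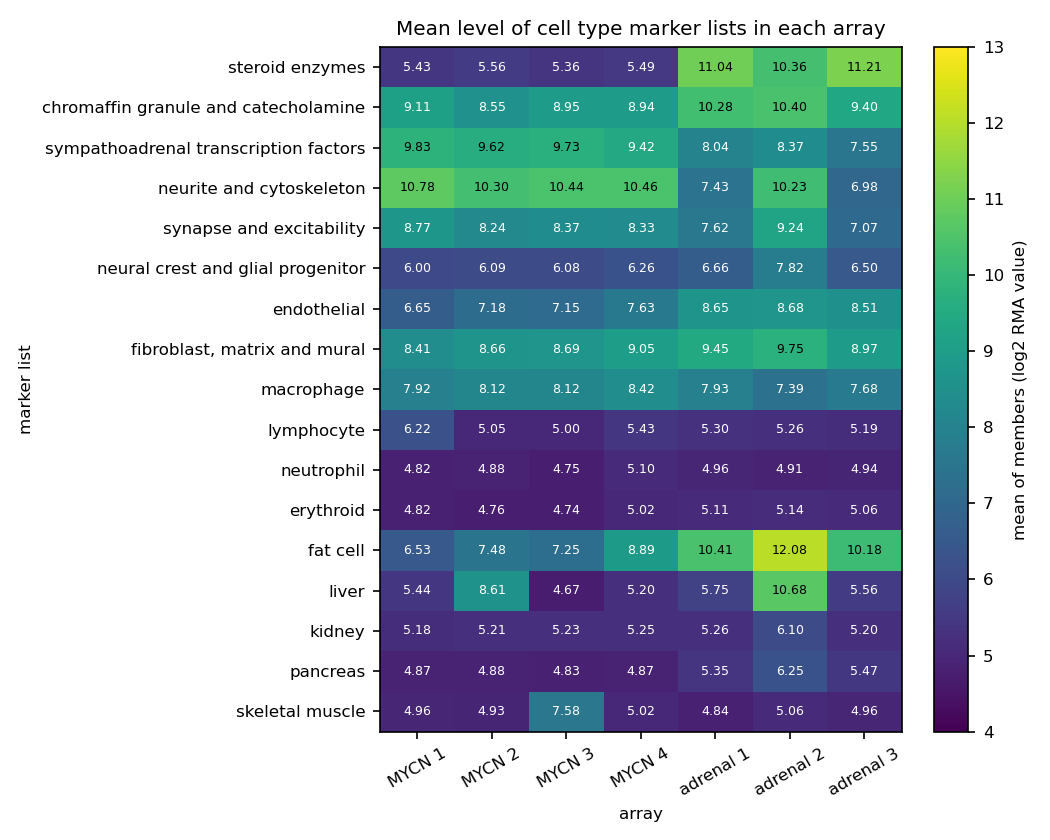
Mean log2 RMA value (colour and number) of 17 marker lists (rows) in each of the 4 MYCN and 3 adrenal arrays (columns). Steroid enzymes read 5.36 to 5.56 in the tumours and 10.36 to 11.21 in the gland; adrenal 2 (liver 10.68), MYCN 2 (liver 8.61) and MYCN 3 (skeletal muscle 7.58) stand apart from their groups.

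Mycn, the mouse gene of the transgene's family member, has 3 probe sets, and whether they read the transgene is not given, so whether they check the labels cannot be said. The probe set brightest over all 13 arrays (mean 8.85) read 6.3, 5.19, 6.68 and 7.23 in the tumours and 8.7, 7.43 and 6.92 in the gland, a difference of -1.34 ± 0.51 (adjusted p = 0.0474). MYCN 4 lay above adrenal 3, so the groups overlapped, and the call was lost in 13 of 18 alternative analyses, among them the fit with sex as a covariate. That probe set owes its rank to the other tumour groups: its mean was 12.03 ± 0.33 (SD, n = 3) in mutALK and 10.19 ± 0.64 (SD, n = 3) in double transgenic tumours, against 6.35 ± 0.86 (SD, n = 4) in MYCN tumours. By this probe set alone, Mycn was lower in the tumours labelled MYCN than in either other tumour group. The differences were -5.68 ± 0.51 (adjusted p = 3.16e-05) against mutALK and -3.84 ± 0.51 (adjusted p = 0.00141) against double transgenic tumours. The other Mycn probe sets were compared with the gland only, so whether they differ between the tumour groups was not tested. The next probe set (mean 7.91), the brighter one in every MYCN tumour, read 8.05, 8.37, 8.2 and 7.86 against 7.4, 7.12 and 7.11, with every tumour above every gland (0.91 ± 0.15, adjusted p = 0.000409), and the third differed by -0.2 ± 0.11 (adjusted p = 0.171). Alk, the receptor tyrosine kinase mutated in the other model, read 9.87, 9.08, 9.53 and 9.3 in the tumours and 5.08, 5.49 and 4.92 in the gland (4.28 ± 0.24, adjusted p = 1.46e-07). All 4 tumours lay above all 3 glands.

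The adrenal label was borne out by the steroid genes, whose levels in the gland were among the highest on the arrays. Steroid enzymes fell in 12 of 15 measured members and rose in none (median -5.73). Hsd3b1, which turns pregnenolone into progesterone, read 4.25, 4.09, 3.89 and 3.82 in the tumours and 14.12, 14.15 and 14.33 in the gland (-10.19 ± 1.06, adjusted p = 9.66e-06), the largest difference of all genes. Cyp11a1, the first enzyme of steroid synthesis, read 3.91, 4.27, 3.82 and 3.82 against 13.64, 12.5 and 13.7 (-9.32 ± 0.5, adjusted p = 1.21e-07). Star, the carrier of cholesterol into mitochondria, read 5.72, 5.58, 5.67 and 5.63 against 12.43, 11.86 and 12.87 (-6.73 ± 0.34, adjusted p = 9.56e-08). For these genes the tumours lay within 0.5 of each other and far below every gland. The enzymes of the last steps were low in every tumour and differed in their level in the gland. Cyp11b1, which makes corticosterone, read 4.21, 4.23, 4.02 and 4.32 against 13.44, 13.02 and 13.93 (-9.26 ± 0.52, adjusted p = 1.60e-07). Cyp11b2, the aldosterone enzyme, read 3.83, 4.31, 4.17 and 4.09 against 9.1, 6.77 and 9.39 (-4.32 ± 0.49, adjusted p = 1.91e-05). Akr1c18, which inactivates progesterone, read 5.66, 5.79, 5.86 and 5.71 against 14.33, 11.76 and 14.03 (-7.62 ± 0.61, adjusted p = 1.34e-06). Adrenal 2 was the lowest gland for each of the genes in this paragraph except Hsd3b1, for which adrenal 1 was lowest. Cyp17a1, Hsd11b2 and Sult1e1 were the members not called.

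Among 29 genes that regulate the cortex 20 fell and 4 rose (median -3.5). Mc2r, the receptor for ACTH, read 3.85, 3.89, 3.55 and 4.69 in the tumours and 11.89, 10.89 and 12.47 in the gland (-7.76 ± 0.36, adjusted p = 6.26e-08), and its accessory protein Mrap differed by -7.21 ± 0.57 (adjusted p = 1.19e-06). Nr5a1, the master regulator of steroid genes, read 5.68, 5.55, 5.75 and 5.29 against 10.66, 9.67 and 11.55 (-5.06 ± 0.34, adjusted p = 4.47e-07), and Nr0b1, its partner in cortex development, differed by -5.57 ± 0.43 (adjusted p = 1.00e-06). Every tumour lay below every gland for these receptors and regulators, and adrenal 2 was again the lowest gland. Dlk1, a membrane protein of progenitor cells, was the largest rise in the list, at 12.28, 12.09, 12.19 and 12.11 against 10.7, 8.53 and 9.4 (2.62 ± 0.5, adjusted p = 0.000886); the difference was 1.67 with array weights. The 4 rises became 2 without MYCN 2 and adrenal 2 together. Without the dimmest 40% of genes 12 of the 19 members left fell.

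Genes of cholesterol supply fell in 18 of 21 members and rose in 2 (median -1.57), and those of cholesterol synthesis fell in 14 of 17 and rose in none (median -1.32). Scarb1, the receptor that takes cholesterol esters from HDL, read 8.69, 9.29, 9.27 and 9.64 in the tumours and 13.22, 11.88 and 13.69 in the gland (-3.71 ± 0.42, adjusted p = 1.67e-05). Msmo1, whose promoter is printed above, read 8.55, 8.93, 8.59 and 8.56 against 11.39, 10.25 and 11.05 (-2.24 ± 0.25, adjusted p = 1.86e-05), and Dhcr7, which completes cholesterol, read 9.21, 8.91, 8.72 and 9.0 against 11.56, 10.51 and 11.99 (-2.39 ± 0.3, adjusted p = 4.00e-05). No tumour reached any gland for these members. Abcg1, a cholesterol exporter, was one of the rises (1.36 ± 0.27, adjusted p = 0.00107). Of 30 antioxidant and peroxisomal genes 25 fell (median -2.7), led by Hao2, a peroxisomal oxidase, at 2.88, 3.09, 2.91 and 2.94 against 12.21, 11.04 and 12.57 (-8.99 ± 0.86, adjusted p = 4.81e-06). Adh1, an alcohol and retinol dehydrogenase, read 5.7, 7.58, 5.41 and 6.78 against 14.18, 13.76 and 14.28 (-7.7 ± 1.47, adjusted p = 0.00091). The tumours spread over 2.17 for Adh1, with MYCN 2 highest, yet did not overlap the gland.

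**Figure D2:**
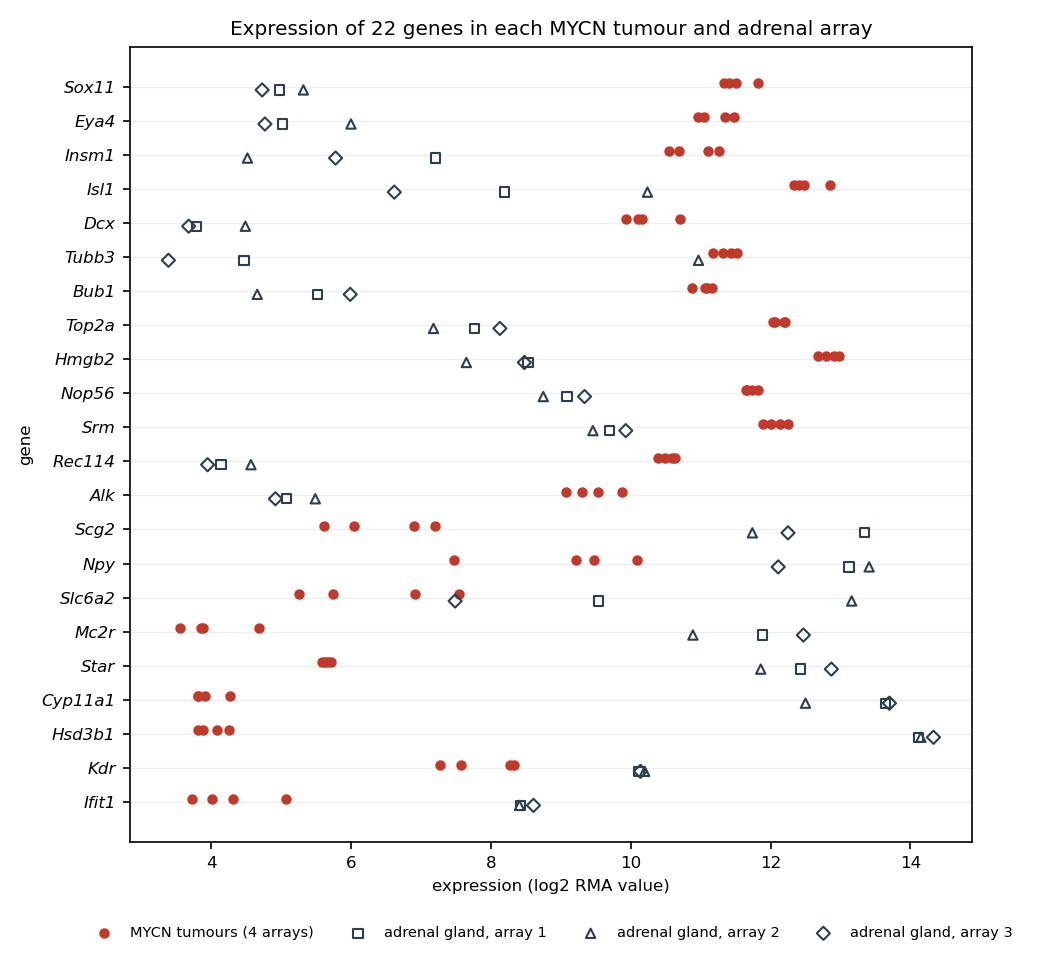
Log2 RMA values (x axis) of 22 genes (y axis) in each array; filled circles are the 4 MYCN tumours, and open squares, triangles and diamonds are adrenal 1, 2 and 3. Steroid genes such as Hsd3b1 (3.82 to 4.25 against 14.12 to 14.33) separate the groups most widely, and adrenal 2 lies close to the tumours for Tubb3 (10.97 against 11.18 to 11.52).

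The sympathoadrenal side of the tumours showed in the transcription factors, of which 18 of 29 rose and 2 fell (median 1.75). Sox11, a factor of immature neurons, read 11.82, 11.5, 11.4 and 11.34 in the tumours and 4.98, 5.32 and 4.73 in the gland (6.5 ± 0.18, adjusted p = 3.59e-09), the largest rise of all genes. Eya4, a coactivator in placode and crest development, read 10.96, 11.35, 11.48 and 11.05 against 5.02, 6.0 and 4.77 (5.95 ± 0.52, adjusted p = 2.48e-06), and Insm1, which acts in sympathoadrenal differentiation, read 10.69, 11.27, 11.11 and 10.55 against 7.21, 4.52 and 5.78 (5.06 ± 0.55, adjusted p = 1.31e-05). The tumours lay within 0.8 of each other for these factors, while the glands spread over 2.69 for Insm1, with adrenal 1 highest and adrenal 2 lowest. The factors above were named for the size of their rise. Some core factors that sympathetic neurons and chromaffin cells share, named after their values were seen, also rose. Isl1 read 12.85, 12.41, 12.48 and 12.33 against 8.2, 10.24 and 6.62 (4.16 ± 0.6, adjusted p = 0.000116), Gata3 read 9.28, 9.34, 9.59 and 9.24 against 7.52, 7.14 and 5.89 (2.51 ± 0.31, adjusted p = 3.54e-05) and Hand2 read 12.3, 12.06, 12.16 and 11.78 against 10.12, 11.26 and 8.71 (2.04 ± 0.44, adjusted p = 0.00212). Among the glands adrenal 2 was highest for Isl1 and Hand2, and no gland reached a tumour. Phox2a read 10.29, 9.96, 9.76 and 8.9 against 8.02, 9.42 and 6.45 (1.77 ± 0.6, adjusted p = 0.029); adrenal 2 lay above MYCN 4, and the call was lost when any of MYCN 1, MYCN 2, MYCN 3, adrenal 1 or adrenal 3 was left out (adjusted p = 0.0554 to 0.137) or with sex as a covariate (0.0653). Tbx3, a T-box repressor, and Epas1, an oxygen-sensing factor, fell by 3.28 and fell by 1.99 on the log2 scale, respectively.

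Chromaffin genes, in contrast, fell in 13 of 27 members and rose in 4 (median -0.83). Scg2, a granule protein, read 7.2, 5.61, 6.9 and 6.04 in the tumours and 13.34, 11.74 and 12.25 in the gland (-6.01 ± 0.45, adjusted p = 9.02e-07), and Npy, a neuropeptide released with noradrenaline, read 9.47, 7.48, 9.22 and 10.09 against 13.12, 13.41 and 12.11 (-3.81 ± 0.57, adjusted p = 0.000154). Dbh, which makes noradrenaline, read 9.72, 8.37, 9.18 and 8.91 against 11.26, 12.12 and 10.23 (-2.16 ± 0.49, adjusted p = 0.00284), and Pnmt, which turns it into adrenaline, read 7.31, 7.63, 7.59 and 7.47 against 10.4, 8.7 and 9.55 (-2.05 ± 0.31, adjusted p = 0.000145). No tumour overlapped the gland for any of these. The first steps of the pathway did not fall: Th, the rate-limiting enzyme, read 11.8, 9.89, 11.79 and 11.29 against 11.95, 11.63 and 10.85 (-0.29 ± 0.56, adjusted p = 0.715) and overlapped, and Ddc read 12.61, 12.43, 12.6 and 12.6 against 10.34, 12.52 and 9.21 (1.87 ± 0.55, adjusted p = 0.0139), with MYCN 2 below adrenal 2. The call for Ddc was lost without adrenal 1 (adjusted p = 0.0536) or adrenal 3 (difference 1.13, adjusted p = 0.0541). Slc6a2, the noradrenaline transporter, read 6.92, 5.26, 5.74 and 7.55 against 9.54, 13.16 and 7.49 (-3.7 ± 1.06, adjusted p = 0.0119). Adrenal 2 was the high one, MYCN 4 lay above adrenal 3, and without adrenal 2 the difference was -2.15 (adjusted p = 0.0298); with sex as a covariate it was -3.14 (0.0791). The 4 rises of the list were 6 without adrenal 2 and 2 without adrenal 3.

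Genes of neurite growth rose in 24 of 30 members and fell in 2 (median 2.63). Dcx, a microtubule protein of migrating neurons, read 10.71, 10.1, 10.16 and 9.93 in the tumours and 3.79, 4.49 and 3.68 in the gland (6.24 ± 0.26, adjusted p = 4.08e-08). Tubb3, neuronal tubulin, read 11.52, 11.44, 11.32 and 11.18 against 4.47, 10.97 and 3.39 (5.09 ± 1.32, adjusted p = 0.00684), and Nefl, the light neurofilament, read 13.42, 12.89, 13.05 and 12.47 against 5.92, 11.83 and 5.67 (5.15 ± 1.13, adjusted p = 0.00241). For Tubb3 and Nefl adrenal 2 sat within 0.7 of the lowest tumour while the other glands lay more than 5 below it. Chl1, an adhesion molecule, and Mapt, the tau protein, were the falls, and Chl1 read 5.44, 3.69, 3.97 and 4.66 against 10.58, 10.66 and 9.06 (-5.66 ± 0.48, adjusted p = 2.05e-06). Without adrenal 2 the list had 26 rises, 2 falls and a median of 3.46. Neuronal RNA-binding proteins rose in 16 of 20 members and 1 fell (median 2.24), with Celf5, a splicing factor, at 10.09, 9.42, 9.98 and 9.82 against 4.55, 6.3 and 3.77 (4.95 ± 0.44, adjusted p = 2.92e-06) and Elavl4, which stabilises neuronal mRNAs, at 10.8, 10.66, 11.7 and 11.6 against 6.38, 9.09 and 5.11 (4.33 ± 0.71, adjusted p = 0.000292). For each the highest gland, adrenal 2, was still below every tumour.

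Synaptic and channel genes gave a count that rests on adrenal 2. With all arrays 8 of 30 rose and 4 fell (median 0.43), shares of 26.7% and 13.3% against 25.3% and 24.8% of all genes; without adrenal 2 there were 19 rises and 3 falls (median 0.98). Leaving out MYCN 1 or MYCN 3 gave 5 rises, and leaving out adrenal 1 or adrenal 3 gave 4. Cplx1, a regulator of vesicle release, read 11.59, 11.13, 10.85 and 10.98 in the tumours and 7.26, 10.94 and 7.75 in the gland (2.49 ± 0.68, adjusted p = 0.00908), and adrenal 2 lay above MYCN 3 while the other glands lay below every tumour. Markers of crest and glial progenitors fell in 13 of 28 members and rose in 4 (median -0.87), led by Cdh19, a Schwann cell precursor cadherin, at 3.22, 3.16, 3.02 and 3.9 against 6.44, 8.68 and 5.81 (-3.65 ± 0.75, adjusted p = 0.00146). Adrenal 2 was the highest gland there too, and without it 8 members fell and 2 rose; 8 fell with sex as a covariate. Leaving out MYCN 4 also gave 2 rises. Sox10, the defining factor of the glial lineage, read 6.36, 6.64, 6.64 and 6.64 against 6.94, 8.43 and 6.81 and was not called (-0.83 ± 0.38, adjusted p = 0.0937), but was without adrenal 3 (-1.12, adjusted p = 0.0435).

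**Figure D3:**
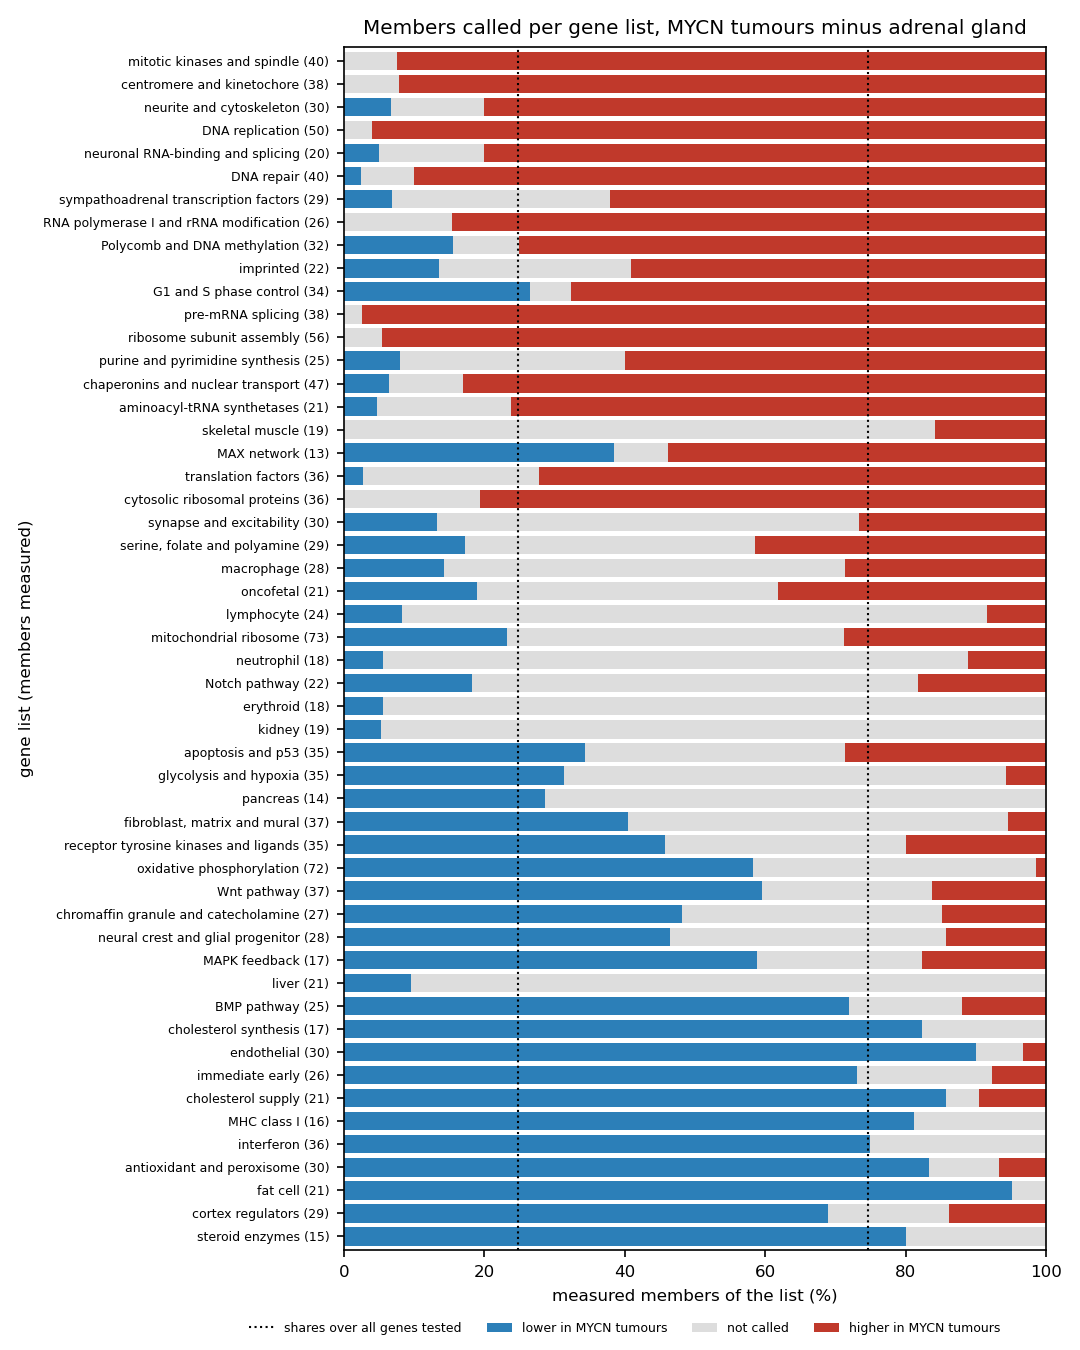
Share of measured members (x axis, %) called lower, not called and called higher in MYCN tumours for each of the 52 gene lists (y axis, sorted by median difference, with the number measured); dotted lines mark the shares over all genes tested, 24.8% lower and 25.3% higher. Mitotic genes (92.5% higher) stand at the top and steroid enzymes (80% lower) at the bottom.

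Division genes rose nearly without exception. In the DNA replication list 48 of 50 members rose (median 2.61), in the mitotic kinase and spindle list 37 of 40 (median 3.89), in the centromere and kinetochore list 35 of 38 (median 3.35), and none fell in these lists. In the DNA repair list 36 of 40 rose and 1 fell (median 2.22). Bub1, a kinase of the spindle checkpoint, read 10.88, 11.17, 11.07 and 11.09 in the tumours and 5.52, 4.66 and 5.99 in the gland (5.66 ± 0.3, adjusted p = 1.21e-07). Ube2c read 12.43, 12.7, 12.67 and 12.73 against 7.94, 6.62 and 8.08 (5.09 ± 0.29, adjusted p = 1.82e-07) and Kif11 read 10.23, 10.51, 10.66 and 10.32 against 5.55, 4.96 and 5.86 (4.97 ± 0.31, adjusted p = 2.95e-07). These mitotic genes lay within 0.43 of each other among the tumours, and adrenal 2 was the lowest gland for each. Top2a, the topoisomerase that untangles replicated DNA, read 12.03, 12.21, 12.19 and 12.07 against 7.77, 7.18 and 8.13 (4.43 ± 0.26, adjusted p = 2.03e-07), Cdc6, which loads the replicative helicase, read 8.74, 9.02, 9.12 and 8.9 against 5.0, 4.45 and 4.73 (4.22 ± 0.26, adjusted p = 2.68e-07), and Cenpa, the centromeric histone, read 11.26, 11.59, 11.67 and 11.62 against 6.95, 6.88 and 7.08 (4.56 ± 0.25, adjusted p = 1.30e-07). No gland came within 3 of a tumour for these either. Exo1, a repair exonuclease, read 9.61, 9.87, 9.82 and 9.62 against 4.42, 4.32 and 4.39 (5.35 ± 0.31, adjusted p = 1.76e-07), and Brca1, of homologous recombination, read 9.57, 9.65, 9.79 and 9.59 against 5.59, 4.87 and 5.62 (4.29 ± 0.27, adjusted p = 2.70e-07). Orc1, Orc4, Pttg1, Aurkc, Kif15, Cenpb, Nsl1 and Zwint were the members of the first 3 lists that were not called. With all probe sets averaged, Orc1 (1.27, adjusted p = 8.14e-05) and Zwint (0.92, adjusted p = 0.000198) were called higher. The replication list then had 47 rises and the centromere list 37. Without adrenal 2, Zwint was called higher (0.97, adjusted p = 0.00206) and Orc4 lower (-0.36, adjusted p = 0.0174), and 2 members of the repair list were called lower.

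Control of the G1 and S phases was mixed, with 23 of 34 members higher and 9 lower (median 1.24). Skp2, which targets the cycle inhibitor p27 for degradation, read 10.24, 10.53, 10.53 and 10.18 in the tumours and 6.91, 5.42 and 6.57 in the gland (4.07 ± 0.36, adjusted p = 2.49e-06), and Ccna2, the S phase cyclin, read 11.88, 11.71, 11.63 and 11.62 against 7.83, 6.89 and 7.93 (4.16 ± 0.27, adjusted p = 3.31e-07). The D cyclins went apart: Ccnd1 read 12.75, 12.83, 13.06 and 12.98 against 10.94, 10.84 and 10.73 (2.07 ± 0.1, adjusted p = 9.23e-08), while Ccnd2 read 8.41, 7.56, 6.96 and 9.42 against 12.32, 11.3 and 12.26 (-3.87 ± 0.5, adjusted p = 4.84e-05). The groups did not overlap for either cyclin, but the tumours spread over 2.46 for Ccnd2 and over 0.31 for Ccnd1. Cdkn1c, an imprinted inhibitor of the cycle, read 8.71, 6.51, 7.82 and 8.29 against 11.54, 10.69 and 12.24 (-3.66 ± 0.64, adjusted p = 0.000503), with MYCN 2 lowest.

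Among Polycomb and DNA methylation genes 24 of 32 rose and 5 fell (median 1.35). Uhrf1, which brings the maintenance methyltransferase to replicated DNA, read 10.99, 11.09, 11.18 and 10.92 in the tumours and 6.59, 6.3 and 6.8 in the gland (4.48 ± 0.26, adjusted p = 1.75e-07), and Hmgb2, a chromatin protein, read 12.68, 12.91, 12.98 and 12.8 against 8.53, 7.65 and 8.48 (4.62 ± 0.31, adjusted p = 4.41e-07). Ezh2, the Polycomb methyltransferase of dividing cells, read 11.11, 11.22, 11.23 and 11.04 against 7.71, 7.22 and 7.71 (3.6 ± 0.27, adjusted p = 8.65e-07), and Tet1, which oxidises methylated cytosine, read 9.37, 9.62, 9.72 and 9.5 against 5.7, 5.38 and 4.79 (4.26 ± 0.2, adjusted p = 6.26e-08). The paralog Ezh1 went the other way, at 7.1, 6.56, 6.68 and 6.85 against 8.98, 9.28 and 9.14 (-2.34 ± 0.2, adjusted p = 2.21e-06), and Dnmt3l, a cofactor of new methylation in germ cells, read 4.79, 4.59, 4.67 and 4.7 against 8.62, 6.28 and 8.77 (-3.21 ± 0.46, adjusted p = 0.000117). None of these members overlapped between the groups. Without adrenal 1 or adrenal 3 the list had 3 falls.

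Ribosome production and RNA handling rose broadly but by less. Ribosome subunit assembly had 53 of 56 members higher and none lower (median 1.21), RNA polymerase I and rRNA modification 22 of 26 and none (median 1.53), and pre-mRNA splicing 37 of 38 and none (median 1.23). Without adrenal 2, 1 member of the assembly list and 1 of the polymerase list were called lower. Rrp1b, of the nucleolus, read 10.36, 10.33, 10.32 and 10.24 in the tumours and 7.6, 6.96 and 7.85 in the gland (2.84 ± 0.18, adjusted p = 3.03e-07), Nop56, of the rRNA methylation complex, read 11.74, 11.82, 11.65 and 11.66 against 9.09, 8.75 and 9.34 (2.66 ± 0.17, adjusted p = 2.74e-07), and Gar1, of the pseudouridylation complex, read 11.46, 11.21, 11.14 and 11.19 against 9.05, 8.41 and 9.18 (2.37 ± 0.18, adjusted p = 9.93e-07). The tumours agreed within 0.32 for these genes and lay clear of the gland. Hnrnpa1, a splicing repressor, read 10.97, 10.95, 11.01 and 10.98 against 8.84, 8.4 and 8.94 (2.25 ± 0.15, adjusted p = 3.78e-07).

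Medians were smaller still for ribosomal proteins, translation factors, aminoacyl-tRNA synthetases, chaperonins and nuclear transport genes. Cytosolic ribosomal proteins rose in 29 of 36 members and fell in none (median 0.53). With all probe sets averaged 27 rose and 1 fell, and with array weights 34 rose and 1 fell. The largest rise was Rpl14 at 8.91, 9.15, 9.23 and 9.22 in the tumours and 6.98, 7.0 and 7.32 in the gland (2.03 ± 0.16, adjusted p = 1.14e-06). Translation factors rose in 26 of 36 and fell in 1 (median 0.68), the fall being Eif4ebp1, an inhibitor of cap-dependent translation (-1.72 ± 0.38, adjusted p = 0.00247). Falls in the translation factor list were 2 without adrenal 1 or adrenal 2. The aminoacyl-tRNA synthetases rose in 16 of 21 and fell in 1 (median 0.75), led by Vars at 10.04, 10.2, 9.99 and 10.07 against 8.24, 8.1 and 8.43 (1.82 ± 0.11, adjusted p = 2.68e-07). The fall, Aars, lost its call without adrenal 1 (adjusted p = 0.0576) or adrenal 3 (0.076). Chaperonins and nuclear transport genes rose in 39 of 47 and fell in 3 (median 1.07), led by Kpna2, an importin, at 12.13, 12.4, 12.27 and 12.33 against 9.53, 9.43 and 9.87 (2.67 ± 0.16, adjusted p = 2.28e-07). For each of these leaders the tumours lay above the gland without overlap.

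Genes of purine and pyrimidine synthesis rose in 15 of 25 members and fell in 2 (median 1.12). Cad, which starts pyrimidine synthesis, read 9.79, 10.18, 9.98 and 9.87 in the tumours and 7.04, 7.87 and 7.13 in the gland (2.61 ± 0.2, adjusted p = 1.17e-06). The falls were 1 without MYCN 1, MYCN 3, adrenal 1 or adrenal 3. Serine, folate and polyamine genes rose in 12 of 29 and fell in 5 (median 0.37). Srm, spermidine synthase, read 11.89, 12.25, 12.0 and 12.14 against 9.7, 9.46 and 9.93 (2.38 ± 0.14, adjusted p = 1.95e-07), and Odc1, the first enzyme of polyamine synthesis, read 12.1, 12.33, 12.12 and 11.93 against 11.46, 10.46 and 11.68 (0.92 ± 0.29, adjusted p = 0.0192). Both polyamine enzymes were lowest in adrenal 2, and neither overlapped. The call for Odc1 was lost without adrenal 2 (0.55, adjusted p = 0.08) and with sex as a covariate (0.72, adjusted p = 0.132). Slc1a5, a glutamine carrier, fell, at 5.43, 5.79, 5.89 and 6.42 against 8.97, 10.51 and 8.19 (-3.34 ± 0.43, adjusted p = 4.50e-05). The 5 falls became 3 without MYCN 1, MYCN 4, adrenal 1 or adrenal 2.

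Mitochondrial genes did not follow. The mitochondrial ribosome had 21 of 73 members higher and 17 lower (median 0), shares of 28.8% and 23.3% that lie near the background of 25.3% and 24.8%, and 11 were lower where arrays were centred on their median or sex was a covariate. Oxidative phosphorylation fell in 42 of 72 members and rose in 1 (median -0.53). Sdha, of complex II, read 10.7, 11.0, 11.03 and 11.17 in the tumours and 12.17, 12.72 and 12.3 in the gland (-1.42 ± 0.16, adjusted p = 1.46e-05). Adrenal 2 was the highest gland for Sdha, and without it 37 members fell and 4 rose (median -0.3). The single rise, Atp5g2, lost its call in 11 alternatives. Cox7a1, the largest fall of the list, is a subunit of muscle and brown fat and read 4.31, 5.26, 6.55 and 8.17 against 8.66, 12.54 and 10.13 (-4.37 ± 0.94, adjusted p = 0.00207); the difference was -2.74 with array weights, and the fat cell list, which also holds Cox7a1, was high in the gland as given above. Glycolysis and hypoxia genes fell in 11 of 35 and rose in 2 (median -0.31). These are shares of 31.4% and 5.71%, against 24.8% and 25.3% of all genes. Without adrenal 2, 9 of them fell and 6 rose. Bnip3, a hypoxia-responsive mitophagy receptor, read 9.6, 8.68, 9.15 and 9.48 against 12.48, 12.3 and 12.38 (-3.16 ± 0.28, adjusted p = 2.78e-06), with no overlap.

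**Figure D4:**
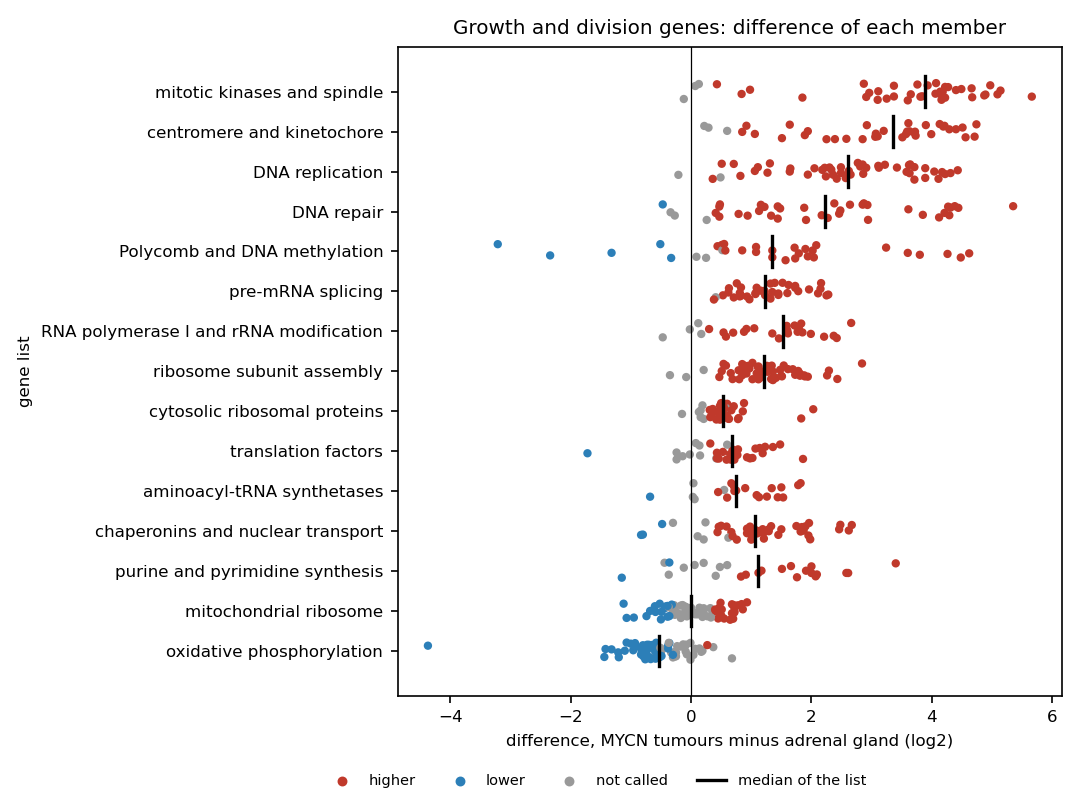
Difference of each member, MYCN tumours minus adrenal gland (x axis, log2), for 15 lists of division, growth and energy genes (y axis; vertical jitter only separates points); red is called higher, blue called lower, grey not called, and the black bar is the median of the list. Medians run from 3.89 (mitotic kinases and spindle) through 1.21 (ribosome subunit assembly) to -0.53 (oxidative phosphorylation).

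In the MAX network, the partners and competitors of MYC proteins, 7 of 13 members rose and 5 fell (median 0.69). The falls were 4 in most alternatives, among them sex as a covariate and leaving out adrenal 2. The largest fall was Mlxipl (-3.4 ± 0.59, adjusted p = 0.000447). Myc itself read 6.44, 6.13, 6.3 and 6.82 in the tumours and 9.86, 8.22 and 9.72 in the gland (-2.84 ± 0.41, adjusted p = 0.000123), and its relative Mycl read 8.51, 7.5, 7.67 and 7.88 against 4.8, 5.31 and 4.88 (2.9 ± 0.29, adjusted p = 6.77e-06). Max, the shared partner, read 8.52, 8.75, 8.68 and 8.76 against 7.84, 7.53 and 7.87 (0.93 ± 0.11, adjusted p = 2.75e-05). Among the repressors that compete for MAX, Mxd3 read 8.68, 9.29, 9.56 and 9.26 against 6.35, 5.87 and 6.66 (2.9 ± 0.34, adjusted p = 2.13e-05), Mxi1 read 10.65, 10.59, 10.54 and 10.66 against 9.13, 9.12 and 9.18 (1.47 ± 0.08, adjusted p = 1.67e-07), and Mga read 9.19, 9.35, 9.45 and 9.23 against 7.62, 6.93 and 7.53 (1.95 ± 0.18, adjusted p = 3.66e-06). Myc was below the gland in every tumour, and Mycl, Max and these competitors were above it in every tumour.

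Meiotic genes, read in the oncofetal list (8 of 21 higher, 4 lower, median 0.21), moved both ways. The list's shares were 38.1% higher and 19% lower, against 25.3% and 24.8% of all genes. Rec114, needed for meiotic DNA breaks, read 10.63, 10.49, 10.39 and 10.59 in the tumours and 4.14, 4.57 and 3.95 in the gland (6.31 ± 0.18, adjusted p = 3.59e-09). Stag3, a meiotic cohesin, read 7.51, 6.51, 7.25 and 5.65 against 3.09, 3.67 and 3.37 (3.35 ± 0.4, adjusted p = 2.73e-05), and Syce2, of the synaptonemal complex, read 11.27, 11.39, 11.58 and 11.67 against 7.61, 7.1 and 7.66 (4.03 ± 0.22, adjusted p = 1.36e-07). Sycp3, of the same complex, read 3.01, 3.8, 3.59 and 4.92 against 6.38, 7.95 and 5.94 (-2.92 ± 0.47, adjusted p = 0.000279), and Ddx4, a germ cell helicase, read 2.68, 2.64, 2.79 and 2.7 against 4.7, 3.69 and 5.5 (-1.93 ± 0.31, adjusted p = 0.000236). Groups did not overlap for any of these, though the tumours spread over 1.86 for Stag3 and 1.91 for Sycp3. Ddx4 in the tumours and Stag3 in the gland were at levels near the lowest on the arrays, and without the dimmest 40% of genes only 4 members of the list are left, all of which rose. The imprinted list had 13 of 22 members higher and 3 lower (median 1.24). Zdbf2 read 12.13, 11.49, 10.37 and 11.38 against 7.88, 6.65 and 6.98 (4.17 ± 0.46, adjusted p = 1.58e-05), Magel2, from the Prader-Willi region, read 9.71, 9.59, 9.66 and 8.65 against 5.93, 5.35 and 4.8 (4.04 ± 0.44, adjusted p = 1.43e-05), and Peg10, derived from a retrotransposon, read 8.99, 8.91, 9.17 and 9.15 against 5.38, 4.46 and 5.75 (3.86 ± 0.49, adjusted p = 4.33e-05). Asb4 was high in all tumours but MYCN 1, at 4.66, 9.91, 9.27 and 9.05 against 5.47, 5.1 and 5.57 (2.84 ± 0.97, adjusted p = 0.0289). Its call was lost when any of MYCN 2, MYCN 3, MYCN 4 or the adrenal arrays was left out (adjusted p = 0.0581 to 0.0789) and with sex as a covariate (0.0557).

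Most signalling lists held more falls than rises, but the Notch list did not. Receptor tyrosine kinases and their ligands fell in 16 of 35 members and rose in 7 (median -0.51). These are shares of 45.7% and 20%, against 24.8% and 25.3% of all genes. Without adrenal 2 the falls were 10, and with sex as a covariate 9. Fgfr2, an FGF receptor, read 5.77, 5.91, 5.77 and 5.8 in the tumours and 10.63, 9.1 and 10.89 in the gland (-4.4 ± 0.34, adjusted p = 1.02e-06). Mdk, the growth factor midkine, which binds ALK, read 10.33, 9.5, 9.68 and 9.44 against 5.91, 6.39 and 5.57 (3.78 ± 0.3, adjusted p = 1.35e-06). Ret, the GDNF family receptor, was not called, at 6.83, 7.96, 8.23 and 8.19 against 6.1, 10.69 and 5.14 (0.49 ± 1.01, adjusted p = 0.729). Adrenal 2 lay above and the other glands below every tumour, and without adrenal 2 the Ret difference was 2.18 (adjusted p = 0.00147). Feedback genes of the MAP kinase pathway fell in 10 of 17 and rose in 3 (median -0.96). Dusp6, an ERK phosphatase, read 7.75, 7.81, 8.02 and 8.31 against 10.95, 10.6 and 10.94 (-2.86 ± 0.41, adjusted p = 0.000117), and Etv5, an ETS factor downstream of FGF and RET, read 5.85, 4.97, 5.11 and 6.14 against 8.64, 8.29 and 8.78 (-3.05 ± 0.31, adjusted p = 8.24e-06). Dusp9, another ERK phosphatase that the list does not hold, rose, at 9.31, 9.87, 9.44 and 9.57 against 3.65, 4.19 and 3.9 (5.63 ± 0.36, adjusted p = 3.09e-07). Immediate early genes fell in 19 of 26 and rose in 2 (median -1.55), led by Nr4a1, an orphan receptor induced by ACTH in the cortex, at 8.12, 7.31, 7.64 and 8.2 against 12.76, 12.76 and 13.26 (-5.11 ± 0.24, adjusted p = 6.26e-08). None of these called signalling members overlapped.

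Wnt genes fell in 22 of 37 members and rose in 6 (median -0.77), and BMP genes fell in 18 of 25 and rose in 3 (median -1.08). Without the dimmest 40% of genes 11 of the 20 Wnt members left fell. Wnt4, which acts in cortex zonation, read 6.15, 5.97, 6.17 and 6.22 in the tumours and 11.07, 10.08 and 11.04 in the gland (-4.6 ± 0.23, adjusted p = 7.97e-08), and Rspo3, the capsule's Wnt amplifier, read 3.23, 3.17, 3.44 and 3.41 against 8.78, 8.36 and 7.99 (-5.06 ± 0.31, adjusted p = 2.46e-07). Sfrp2, a secreted Wnt modulator, rose, at 10.17, 9.04, 8.9 and 9.43 against 5.44, 5.1 and 3.88 (4.58 ± 0.49, adjusted p = 1.17e-05). Id1, a target of BMP signalling, read 6.68, 7.51, 7.17 and 7.85 against 10.1, 10.29 and 10.11 (-2.87 ± 0.3, adjusted p = 1.07e-05), and Smad6, the pathway's inhibitor, read 4.16, 4.1, 4.07 and 4.41 against 7.47, 7.7 and 7.55 (-3.39 ± 0.22, adjusted p = 3.14e-07). These 5 genes separated the groups completely. Bmpr1b, a type I receptor, was the largest BMP rise, at 7.21, 5.73, 6.69 and 5.85 against 4.34, 5.44 and 3.84 (1.83 ± 0.5, adjusted p = 0.0095), and was not called with sex as a covariate (adjusted p = 0.056) or with all probe sets averaged (0.109). The Notch pathway, with 4 of 22 higher and 4 lower (18.2% each, median -0.05), was at or under the background.

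Endothelial and fat cell genes were mostly lower in the tumours, while most fibroblast, matrix and mural genes were not called. Endothelial markers fell in 27 of 30 and rose in 1 (median -1.45), and 25 fell without adrenal 2. Tek, the angiopoietin receptor, read 4.37, 6.01, 5.07 and 6.41 in the tumours and 9.35, 8.86 and 9.52 in the gland (-3.78 ± 0.41, adjusted p = 1.41e-05), and Kdr, the main VEGF receptor, read 7.28, 8.33, 7.58 and 8.28 against 10.12, 10.2 and 10.14 (-2.29 ± 0.26, adjusted p = 1.63e-05). The rise, Prox1, marks lymphatic vessels and is also expressed by neural progenitors, and read 10.73, 10.38, 10.92 and 10.34 against 8.63, 6.64 and 8.7 (2.6 ± 0.46, adjusted p = 0.000517). MYCN 1 was lowest of the tumours for Tek and Kdr. Fibroblast, matrix and mural genes fell in 15 of 37 and rose in 2 (median -0.48), and 20 were not called. The share lower was 40.5%, against 24.8% of all genes. The falls were 9 with sex as a covariate or without MYCN 2 and adrenal 2. Pdgfra, a mesenchymal receptor, read 6.1, 5.55, 5.86 and 6.59 against 10.41, 9.73 and 10.44 (-4.17 ± 0.47, adjusted p = 1.71e-05), and Fbln1, a matrix protein, rose, at 9.58, 9.46, 9.79 and 9.59 against 7.27, 7.29 and 6.58 (2.56 ± 0.2, adjusted p = 1.19e-06). Fat cell markers fell in 20 of 21 members (median -3.16) and in 17 without adrenal 2. Adipoq, the fat hormone adiponectin, read 4.01, 7.8, 6.34 and 10.11 against 13.33, 13.59 and 12.17 (-5.96 ± 1.52, adjusted p = 0.00616); MYCN 4 was highest and MYCN 1 lowest of the tumours, and with sex as a covariate the difference was -4.37 (adjusted p = 0.0644).

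Antigen presentation and interferon genes were mostly lower in the tumours, and macrophage genes gave no settled direction. MHC class I genes fell in 13 of 16 and rose in none (median -1.76), and interferon-stimulated genes fell in 27 of 36 and rose in none (median -2.62); 1 interferon gene rose without adrenal 2. B2m, the light chain of MHC class I, read 11.31, 11.19, 11.18 and 11.86 in the tumours and 13.3, 13.17 and 13.3 in the gland (-1.88 ± 0.37, adjusted p = 0.00112), and was -1.23 with sex as a covariate. Tap1, the peptide transporter, read 6.76, 5.99, 5.53 and 6.26 against 8.62, 8.39 and 8.87 (-2.49 ± 0.47, adjusted p = 0.000792), and Ifit1, an antiviral protein, read 4.01, 4.32, 3.73 and 5.07 against 8.42, 8.41 and 8.61 (-4.2 ± 0.58, adjusted p = 8.21e-05). The groups did not overlap for these. Macrophage markers rose in 8 of 28 and fell in 4 (median 0.36). These are shares of 28.6% and 14.3%, against 25.3% and 24.8% of all genes. The counts depend on the arrays: 3 rises and 5 falls without adrenal 2, 11 and 2 without adrenal 1, and 10 and 0 (median 0.71) with sex as a covariate. Leaving out MYCN 2 or MYCN 4 gave 5 rises. Cd5l, secreted by tissue macrophages, was nevertheless among the largest rises of all genes, at 11.13, 10.58, 10.27 and 11.54 against 4.25, 5.57 and 4.76 (6.02 ± 0.42, adjusted p = 5.52e-07), and Gpnmb, of lipid-laden macrophages, read 9.62, 8.97, 10.32 and 8.03 against 5.2, 6.38 and 5.07 (3.68 ± 0.52, adjusted p = 9.90e-05). C1qa, of complement, read 9.81, 10.27, 10.18 and 10.39 against 10.56, 9.39 and 10.08 and was not called (0.15 ± 0.34, adjusted p = 0.754). Lymphocyte genes were higher in 2 and lower in 2 of 24 members, neutrophil genes in 2 and 1 of 18, and erythroid genes in 0 and 1 of 18. Most of these are dim: without the dimmest 40% of genes 3 lymphocyte, 3 neutrophil and 4 erythroid members remain.

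Some of these differences also set the MYCN tumours apart from the other tumours, by the contrasts with those groups in the same fit, whose spread includes the adrenal arrays. Against mutALK tumours 30.8% of all genes were called (3125 higher, 17.2%, and 2478 lower, 13.6%), and against double transgenic tumours 12.8% (1212 higher, 6.66%, and 1121 lower, 6.16%). Ribosome subunit assembly was higher in 51 of 56 members against mutALK and in 34 against double transgenic tumours, and mitochondrial ribosome genes in 50 and 26 of 73. DNA replication was higher in 43 of 50 members against mutALK and in 6 against double transgenic tumours, and mitotic genes in 35 and 3 of 40. Chromaffin genes were lower in 15 and 8 of 27. Endothelial genes were higher in 1 of 30 against mutALK and in 17 against double transgenic tumours, and fibroblast genes in 2 and 19 of 37. Neutrophil genes were lower in 13 of 18 against mutALK and in 1 against double transgenic tumours. Assembly genes thus stood well above the background in both comparisons, replication and mitotic genes mainly in the former, and stromal genes in the latter.

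**Figure D5:**
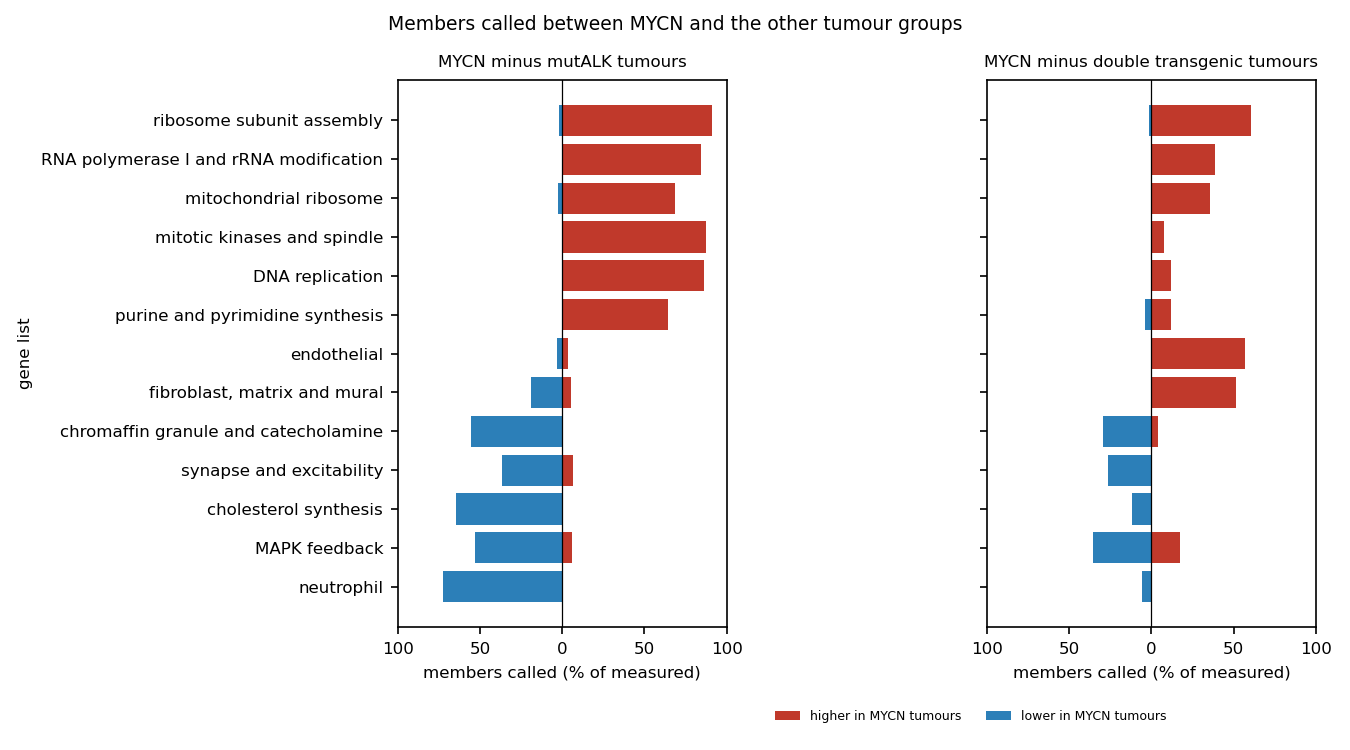
Share of measured members (x axis, %; right of 0 higher, left of 0 lower in MYCN tumours) called against mutALK tumours (left panel) and against double transgenic tumours (right panel) for 13 gene lists (y axis). Ribosome subunit assembly is called higher in both panels (51 and 34 of 56 members), and endothelial genes in the right one (1 and 17 of 30).

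Of all genes 603 (3.31%) were higher in MYCN tumours than in the gland and in both other tumour groups, and 458 (2.52%) were lower. Dach1, a repressor of the retinal determination network, read 8.95, 10.54, 10.74 and 10.2 in the tumours and 6.34, 5.8 and 6.48 in the gland (3.9 ± 0.38, adjusted p = 5.87e-06), and differed by 5.13 ± 0.38 (adjusted p = 1.56e-05) from mutALK and by 5.11 ± 0.38 (adjusted p = 8.55e-05) from double transgenic tumours. St18, a zinc finger factor of the Myt1 family, read 10.05, 10.64, 10.52 and 10.49 against 6.92, 3.0 and 5.48 (5.29 ± 0.68, adjusted p = 4.99e-05), and differed by 7.57 ± 0.68 (adjusted p = 3.23e-05) and 4.45 ± 0.68 (adjusted p = 0.00269). Morc1, a silencer of transposons in germ cells, read 8.76, 5.81, 6.23 and 6.83 against 2.7, 2.8 and 2.7 (4.17 ± 0.52, adjusted p = 3.86e-05), and differed by 4.11 ± 0.52 (adjusted p = 0.000195) and 4.14 ± 0.52 (adjusted p = 0.00108). Each of these was above every gland in every tumour, with MYCN 1 lowest for Dach1 and highest for Morc1. On the lower side Chl1 differed by -6.65 ± 0.48 (adjusted p = 1.52e-05) and -3.7 ± 0.48 (adjusted p = 0.00129), and Etv5 by -3.56 ± 0.31 (adjusted p = 2.81e-05) and -4.09 ± 0.31 (adjusted p = 9.49e-05). Srm was higher by 1.73 ± 0.14 (adjusted p = 2.18e-05) and 0.85 ± 0.14 (adjusted p = 0.00361), and Cad by 2.09 ± 0.2 (adjusted p = 4.78e-05) and 1.03 ± 0.2 (adjusted p = 0.00903), so that both metabolic genes exceeded the gland and both other tumour groups.

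Averaging all probe sets of a gene, dim ones included, shrank some differences by over 1.5 times without changing direction or call. Among steroid and cortex genes these were Cyp11a1 at -4.24, Mrap at -3.71, Nr5a1 at -2.66, Msmo1 at -1.13, Abcg1 at 0.88 and Rspo3 at -2.91. Among neural genes they were Eya4 at 3.76, Tbx3 at -1.54, Dcx at 3.36 and Chl1 at -2.6. Among genes of division and growth they were Top2a at 2.25, Cenpa at 1.78, Exo1 at 3.31, Brca1 at 2.7, Tet1 at 2.58, Slc1a5 at -1.92, Ezh1 at -0.71, Mycl at 1.3 and Mga at 0.51. Among signalling, stromal and immune genes they were Fgfr2 at -2.51, Etv5 at -1.62, Pdgfra at -1.95, Fbln1 at 1.28, Gpnmb at 2.17 and Tap1 at -0.67. Signal over background was not analysed, and differences of genes near the lowest levels in a group may understate the change.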

How the data were processed

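RNA from 13 samples was measured on Affymetrix mouse arrays. The deposited values are log2 intensities that the authors made by RMA in Partek, per the submitters' processing notes, whose versions are not given in the sources used here; array medians were 5.8 to 5.9. RMA fits probes over all arrays together and shrinks differences of dim genes. Of 45101 probe sets, 34958 carried 1 gene symbol, 932 several and 9211 none, and 64 were controls. The probe set with the highest mean over all 13 arrays stood for each of 18194 genes. Groups were taken from the genotype labels. The fit (limma 3.58.1 in R 4.3.3, lmFit and eBayes) gave each of the 4 groups its own mean and took the spread from all samples, and the contrast MYCN minus adrenal was adjusted by Benjamini-Hochberg over all genes. On simulated data of this design the fit recovered 69% of changes of 1 and 96% of changes of 2 on the log2 scale. Those data held 100 changed genes of each size among 18194, with 1 normal spread per gene for every group. The real arrays had far more called genes and unequal spreads, so the rates may not carry over. The number of arrays limits the precision.

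The gene lists (52, with 1536 distinct measured genes) and the members named were chosen with earlier results of these data known, so lists are described by counts and medians beside those of all genes. Genes were named by size: the 20 largest rises and falls, up to 4 called members of each list in its main direction and 2 in the other, up to 2 bright members not called, up to 8 per direction that also differed from both other tumour groups, and 5 whose 2 probe sets opposed each other. Cyp11b2, Cyp21a1, Nr5a1, Phox2a, Hand2, Gata3, Isl1, Tfap2b, Dbh, Pnmt, Chga, Max, Ezh2, B2m, Brca1, C1qa, Odc1, Ret and Sox10 were named after their values were seen. Promoters came from RefSeq (GRCm38.p6). Alternatives covered normalization, probe set choice, dim genes, variance model, array weights, shared title numbers, sex and leaving out arrays. Python 3.11.15 drew the figures.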

Additional observations from a re-analysis of the deposited data

Results flagged for a closer look

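A MYCN array stood apart from the other 3 in 31 of 464 sets of 4 values examined (Dixon's test), and chance alone picks out about 1 in 20 such sets. MYCN 3 held the muscle pattern: its mean over the skeletal muscle list was 7.58 against 4.93 to 5.02 in the other tumours. The fast myosins Myh1 (9.37 against 5.45 to 5.89) and Myh4 (7.58 against 4.19 to 4.53), the giant sarcomere protein Ttn (6.20 against 4.72 to 4.90) and skeletal actin Acta1 (10.50 against 6.10 to 6.23) were high there. In the same array the vesicle sensor Syt1 was high (10.27 against 9.77 to 9.81) and the neurotrophin receptor Ngfr was low (6.24 against 6.49 to 6.54).

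MYCN 1 was the array that stood apart most often, in 16 sets. It was low for the imprinted gene Asb4 (4.66 against 9.05 to 9.91), the cell cycle factor E2f8 (8.58 against 9.44 to 9.60), the mitotic protein Birc5 (10.90 against 11.27 to 11.34) and Wnt5a (3.51 against 3.96 to 4.05). It was also low for the kinase subunit Prkar2b (10.34 against 10.79 to 10.84), the Notch coactivator Maml1 (8.80 against 9.06 to 9.09), Eif3d (11.89 against 11.94), the synthetase cofactor Aimp2 (10.42 against 10.85 to 10.94), and the ATP synthase gene Atp5b (12.96 against 13.19 to 13.20). The polyamine regulators Oaz1 (12.86 against 13.12 to 13.16) and Azin1 (10.39 against 10.72 to 10.74), the pancreatic gene Cela3b (6.32 against 6.49 to 6.50) and the glial factor Sox10 (6.36 against 6.64) were low in it too. It was high for the B cell receptor partner Cd22 (8.16 against 6.88 to 6.94), the RNA editor Adar (9.12 against 8.39 to 8.49) and the nicotinic receptor Chrna7 (8.32 against 7.27 to 7.37).

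MYCN 4 was high for the fat cell lipase Lipe (7.66 against 6.41 to 6.57), the cholesterol exporter Abcg1 (10.09 against 9.15 to 9.28) and the death receptor Fas (4.95 against 4.39 to 4.44). It was low for Magel2 (8.65 against 9.59 to 9.71), Rad54b (7.54 against 7.81 to 7.84) and Rplp2 (13.79 against 13.83 to 13.84). MYCN 2 was high for Msmo1 (8.93 against 8.55 to 8.59) and low for Ddc (12.43 against 12.60 to 12.61). The gaps of Rplp2 and Eif3d are under 0.1.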

How the results depend on the processing

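The count of called genes ran from 7613 with sex as a covariate to 11676 with array weights, and from 8379 to 9027 when 1 array was left out, against 9128. Among alternatives that test all 18194 genes, between 7469 (81.8%, sex as a covariate) and 9037 (99%, variance trend) of the calls remained. Without the dimmest 40% of genes 10917 genes were left, and the 7427 calls among them remained. With all probe sets averaged 13 genes were called in the opposite direction, and none were under the other alternatives with 1 value per gene. Taking every probe set with 1 symbol on its own, which tests more features, gave 16551 called, 8867 higher and 7684 lower, and 9112 of at least 2-fold. Of 412 named genes 297 kept direction and side of the threshold throughout. Over 7351 values 6888 did so, 319 lost the call, 139 gained it and 5 reversed, all with probe sets averaged: Gadd45gip1 (0.02), Mbp (-0.89), Mrpl47 (-0.11), Snapin (0.05) and Zfp991 (-0.03), where dimmer probe sets of opposite sign enter the mean. Of 1872 list counts 213 moved by over 1.5 times. No paired analysis was possible because the labels give the MYCN and adrenal arrays no shared replicate numbers.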

Other observations

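Some of the largest rises lay outside the pathways described. Fut9, which builds the Lewis x sugar of neural progenitors, differed by 6.05, Tox3, a chromatin protein of neurons, by 5.94, Agtr2, the type 2 angiotensin receptor, by 5.59 and Bcl11a, a zinc finger repressor, by 5.57 on the log2 scale. All of these were called and did not overlap between the groups; Bcl11a was 3.51 with its probe sets averaged. The list of apoptosis and p53 genes had 10 of 35 members higher and 12 lower (median -0.27). These are shares of 28.6% and 34.3%, against 25.3% and 24.8% of all genes.

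A second probe set was at hand for 9012 genes. Among the 5344 of these whose brightest probe set was called, the second had the same sign in 4841 (90.6%), against 66.4% where the brightest was not called. Both were called in the same direction for 3595 genes and in opposite directions for 81. Xaf1, an interferon-induced gene, was -4.77 by its brightest probe set and 1.67 by the second.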
